A study of Mus musculus with 8 samples.

Results

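The serpins are a family of proteins that share one fold, and most of them are protease inhibitors. An inhibitory serpin offers an exposed reactive loop as bait. The protease that cuts the loop is trapped in a covalent complex, so each inhibitor molecule is used once. The family is divided into clades by sequence. Clade A serpins are mostly secreted, and the liver is the main source of those found in plasma, such as alpha-1 antitrypsin. Clade B serpins lack a classical signal peptide, act mostly inside cells, and many are known from leukocytes and epithelia. The smaller clades hold the main inhibitors of coagulation, of plasminogen activation and of complement, together with members that inhibit no protease.

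All genes whose name on the array began with Serpin were taken, leaving out control spots. They numbered 54 of the 27670 named genes, on 73 of the 41174 probes, and comprised 20 members of clade A, 24 of clade B, 2 each of clades E, F and I, and 1 each of clades C, D, G and H. A member entered the comparisons if a probe was well above background on both arrays of at least 1 group, which 34 members did. Of these, 29 passed in all 4 groups. Passing in the KO groups only were 3 members, among them Serpinb1b and Serpini1, and Serpinb6c and Serpinb8 failed only in WT vehicle, so a member let in by the group where it is bright had to differ. The other 20 members could not be compared. Of these, 14 were not well above background on any array: Serpina12, Serpina1f, Serpina3a, Serpina3b, Serpinb2, Serpinb3a, Serpinb3b, Serpinb5, Serpinb9b, Serpinb9c, Serpinb9d, Serpinb9e, Serpinb11 and Serpinb13. The remaining 6 (Serpinb3d, Serpinb7, Serpinb9g, Serpinb10, Serpinb12 and Serpini2) were well above background on 1 or 2 arrays, never on both arrays of a group.

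Liver RNA was measured in 4 groups of female C57BL/6 mice aged 6 months, with 2 arrays a group. KO mice carried Albumin-Cre and Dicer1loxP/loxP, so that the albumin promoter drove Cre in hepatocytes, and WT mice were Dicer1loxP/loxP littermates, whose floxed alleles the KO mice share. Dicer1 encodes the ribonuclease that makes mature microRNAs. KO ENU and WT ENU mice had 1 intraperitoneal injection of ENU, N-ethyl-N-nitrosourea, an alkylating mutagen, at 120 mg/kg and were measured 15 days later. KO vehicle and WT vehicle mice received dimethylsulfoxide at 2 ml/kg, and the day of their measurement is not given.

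The 2 arrays of each group agreed within the noise between spots, so they were averaged into 1 RNA sample. Single comparisons of groups thus have n = 1 on each side and no replicate check, and the number of mice behind each RNA is not stated. Levels below are log2 of the processed signal minus the 75th percentile of the array, and differences between levels are in log2 units. Rose and fell mark genes that passed a limma fit of genotype and treatment to the 4 RNA samples, with an adjusted p under 0.05 over all 18137 genes tested. The 2 treatments stand in for replicates of a genotype there, and 1 residual degree of freedom is left. That residual is how far a gene's KO effect after ENU departs from its KO effect on vehicle. Limma moderates it with the variance of the other genes, and ± gives the resulting standard error. Serpinf1, at -0.954 after ENU and -0.949 on vehicle, and Serpina5, at 0.564 and 0.577, both had a standard error of 0.180. The p-values thus measure only spread within these 4 RNA samples, partly that of other genes. ENU and vehicle arrays lay on separate slides, and on both slides KO held the first 2 positions and WT the last 2, so neither ENU and slide nor genotype and position can be told apart. The 75th percentile signal was 673 to 681 in KO ENU, 505 to 525 in WT ENU, 627 to 673 in KO vehicle and 436 to 442 in WT vehicle. Of the 2 Dicer1 probes, the one at chr12:102186776-102188847 (mm7) read -3.95 and -4.10 in KO ENU, against -2.62 and -2.41 in WT ENU, and -4.13 and -4.50 in KO vehicle, against -1.91 and -1.80 in WT vehicle. The other read lower in KO by only 1.19-fold after ENU and 1.41-fold on vehicle. The mice are labelled female, yet all 4 of the Y-linked genes looked at had a probe well above background on every array.

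In KO liver the clades went different ways. Over both treatments 10 serpins rose and 9 fell, where 16.9% of all genes tested rose and 15.3% fell. Of the 10 that rose, 3 had passed the filter in KO groups only. Among the 29 members that passed it in all 4 groups 5 rose and 9 fell, where 11.7% and 17.2% of the 14559 such genes did. By size alone, 11 serpins were higher and 9 lower in KO by 2-fold or more after ENU (16.3% and 14.2% of all genes), and 11 were higher and 8 lower on vehicle (17.3% and 11.1%). In both comparisons 9 were higher and 8 lower (12.8% and 7.55%), and 25 of the 34 had an unadjusted limma p under 0.05 (48.4%). In clade A, 0 of the 16 measured members rose and 7 fell. In clade B, 7 of 9 rose and 0 fell, and among the 6 that were well above background in all 4 groups 4 rose. In the smaller clades Serpinh1 and Serpini1 were among those that rose, and Serpinf1 and Serping1 fell. The median KO difference of the measured serpins was -0.04 after ENU and -0.06 on vehicle, against -0.10 and -0.14 over all genes. Clade A had medians of -1.07 and -0.65, and clade B of 2.14 and 1.60. The hepatocyte and leukocyte markers that moved the same way are given with each clade below.

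**Figure D1:**
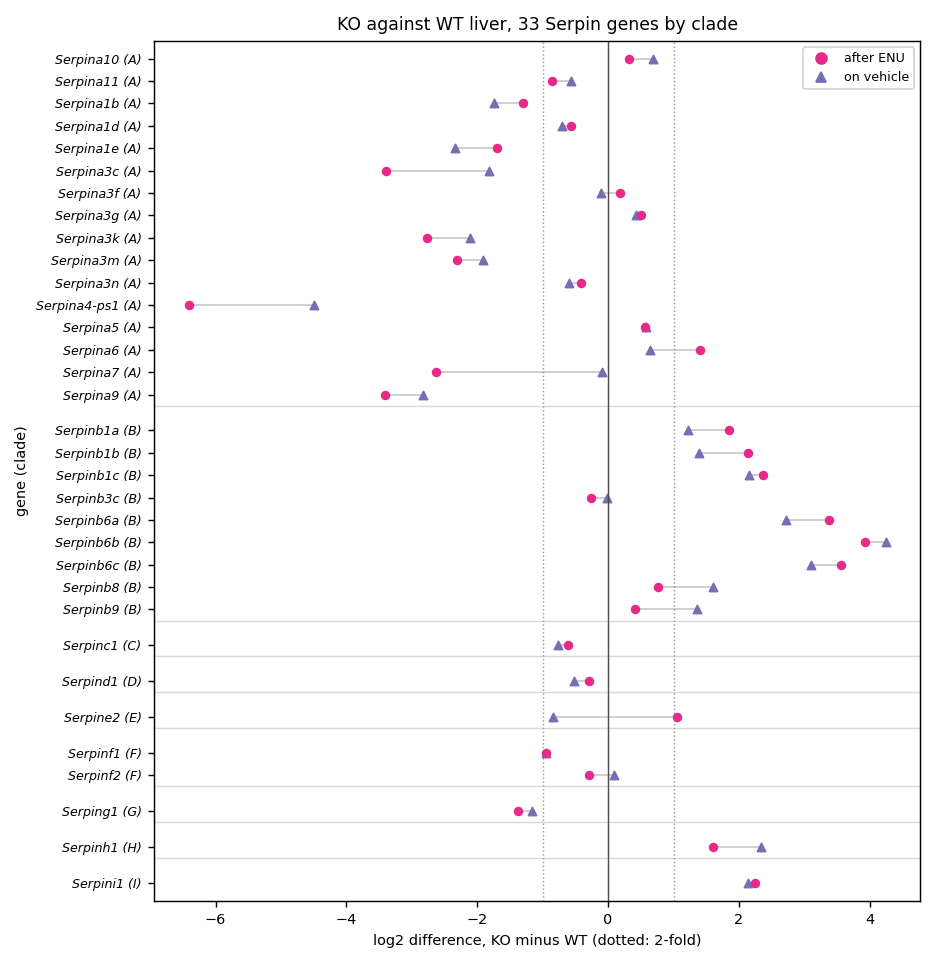
Log2 difference between KO and WT for 33 of the measured serpins, grouped by clade, after ENU (circles) and on vehicle (triangles), with 1 RNA sample of 2 arrays per group and dotted lines at 2-fold. Clade A lies mostly left of 0, down to -6.41 for Serpina4-ps1, and clade B mostly right of 0, up to 4.24 for Serpinb6b.

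Alpha-1 antitrypsin, the main plasma inhibitor of neutrophil elastase, is encoded in mice by a group of near-identical Serpina1 genes, of which 3 were measured. Serpina1b read 7.31 and 7.37 in KO ENU, against 8.58 and 8.69 in WT ENU, and 6.84 and 6.79 in KO vehicle, against 8.52 and 8.57 in WT vehicle. Serpina1e read 6.78 and 6.78 in KO ENU, against 8.48 and 8.48 in WT ENU, and 5.82 and 5.83 in KO vehicle, against 8.19 and 8.14 in WT vehicle. Both WT samples stood above both KO samples for each gene. Serpina1b was 2.46-fold lower in KO after ENU and 3.33-fold lower on vehicle, and over both treatments it fell by 1.52 ± 0.212 (limma adjusted p = 0.0185). Serpina1e was 3.25-fold and 5.07-fold lower, and fell by 2.02 ± 0.243 (limma adjusted p = 0.0151). Serpina1d differed less, by -0.63 ± 0.184 (limma adjusted p = 0.0695), and did not pass the test. Quantile normalization brought Serpina1b to -0.65 (adjusted p = 0.0944), Serpina1e to -1.23 (adjusted p = 0.0420) and Serpina1d to -0.02. The paralogs cannot be separated with certainty. The Serpina1e probe lists transcripts of Serpina1b, Serpina1c, Serpina1d and Serpina1e, the Serpina1d probe lists those of Serpina1c, Serpina1d and Serpina1e, and no listed transcript of the Serpina1b probe was matched to a current gene. The Serpina1f probe, of a more distant relative, was not above background.

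The upstream sequences of these genes are shown because they are nearly alike while the probes of the 3 genes read different changes. The stretches below come from RefSeq (GRCm38.p6), 5′ to 3′, and capitals mark GTTAAT, letters found at the core of sites bound by the hepatocyte factor HNF1.
Serpina1b (- strand, chr12:103738200-103738295): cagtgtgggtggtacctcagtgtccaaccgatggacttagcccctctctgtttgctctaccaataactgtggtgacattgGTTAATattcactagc
Serpina1d (- strand, chr12:103773634-103773729): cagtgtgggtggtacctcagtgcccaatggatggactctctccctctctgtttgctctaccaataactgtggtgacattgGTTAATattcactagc
Serpina1e (- strand, chr12:103956960-103957055): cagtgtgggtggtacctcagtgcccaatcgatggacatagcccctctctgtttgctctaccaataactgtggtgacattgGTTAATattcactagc
Over these 96 bases Serpina1b and Serpina1e share 93, Serpina1d and Serpina1e 90, and Serpina1b and Serpina1d 89. The capitals end 20, 10 and 72 bases before the annotated start of Serpina1b, Serpina1d and Serpina1e. GTTAAT or its reverse complement ATTAAC occurs in the 250 bases before the start in 6.43% of 32851 RefSeq promoters, in 5 of the 14 clade A members with an entry and in 3 of 22 of clade B. The 5 include the nearly alike Serpina1b, Serpina1d and Serpina1e, and so are not 5 independent matches. Of all 54 members, 44 have an entry there and 9 hold these letters. Of the 9, Serpina1b, Serpina1e and Serpina3c fell, Serpinb8 rose, and Serpina1d and Serpina7 did neither. Serpinb3b, Serpinb3d and Serpini2 were not compared. Serpina3k, Serpina3m, Serpina4-ps1, Serpina9 and Serping1, which fell, and Serpinb1a, which rose, are among the members without an entry. The letters TATAAA or TTTATA occur in 14 of the 44 (12.4% of all promoters), and GGGCGG or CCGCCC in 7 (32.7%), all counted on both strands and separately, so that matches may overlap. Of the 7, Serpinb6a, Serpinb6b, Serpinb6c and Serpinh1 rose, Serpine2 did not pass the test, and Serpina12 and Serpinb5 were not compared. The Serpinb6 genes are paralogs, so theirs may not be independent matches. Of the 14, Serpina3c fell, Serpinb1c rose, and Serpina3f, Serpina7 and Serpinb3c did neither. The rest of the 14 were not compared.

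The Serpina3 genes descend from the gene of alpha-1 antichymotrypsin, an acute-phase inhibitor of cathepsin G and mast cell chymase in humans, which is a single gene there and a cluster in mice. Of the 6 measured, 3 fell. Serpina3k, also called contrapsin, read 6.74 and 6.71 in KO ENU, against 9.48 and 9.53 in WT ENU, and 7.68 and 7.58 in KO vehicle, against 9.73 and 9.76 in WT vehicle, and was the serpin of clade A with the brightest probe in WT vehicle. Serpina3m read 6.69 and 6.68 in KO ENU, against 8.97 and 9.03 in WT ENU, and 7.56 and 7.51 in KO vehicle, against 9.45 and 9.44 in WT vehicle. Serpina3c read 3.49 and 3.64 in KO ENU, against 6.95 and 6.99 in WT ENU, and 4.43 and 4.47 in KO vehicle, against 6.25 and 6.30 in WT vehicle. Each was lower on all KO arrays than on all WT arrays. Serpina3k was 6.84-fold lower in KO after ENU and 4.33-fold lower on vehicle, and fell by 2.44 ± 0.246 (limma adjusted p = 0.0123). Its other probe gave smaller differences, -1.63 and -1.0. Serpina3m fell by 2.11 ± 0.208 (limma adjusted p = 0.0120). Serpina3c fell by 2.61 ± 0.438 (limma adjusted p = 0.0246), by 10.6-fold after ENU and 3.54-fold on vehicle. With quantile normalization Serpina3c missed the threshold (-1.98, adjusted p = 0.0553), while Serpina3k and Serpina3m passed at -1.74 and -1.33. Serpina3n, the acute-phase member in mouse liver, differed by -0.51 ± 0.186 (limma adjusted p = 0.107). Serpina3g differed by 0.46 ± 0.182 (limma adjusted p = 0.124) and Serpina3f by 0.04 ± 0.195 (limma adjusted p = 0.884), the last with the opposite sign under normexp (-0.04), quantile (-0.08) and median scaling (-0.15).

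Serpina3c fell. Serpina3n was lower in KO too, at -0.42 after ENU and -0.60 on vehicle, and did not pass the test. Their upstream sequences are closely related and are shown from RefSeq (GRCm38.p6) 5′ to 3′ without gaps. Only alignments that keep ATTAAC of Serpina3c in the stretch were compared, and the stretch is shown at their best shift. Capitals mark ATTAAC in Serpina3c and the 6 bases at the same place in Serpina3n.
Serpina3c (- strand, chr12:104154020-104154119): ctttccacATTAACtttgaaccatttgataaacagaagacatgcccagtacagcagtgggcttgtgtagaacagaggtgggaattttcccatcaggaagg
Serpina3n (+ strand, chr12:104406458-104406557): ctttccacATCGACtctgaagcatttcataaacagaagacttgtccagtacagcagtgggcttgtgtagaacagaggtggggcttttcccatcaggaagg
They share 91 of 100 bases, and ATTAAC, the reverse complement of GTTAAT, is not spelled in the Serpina3n stretch. The capitals end 233 and 236 bases before the start of Serpina3c and Serpina3n. A match of letters is a description and not a measured site.

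Among the other clade A members, Serpina4-ps1 and Serpina9 had the largest differences. Serpina4-ps1, by its symbol a pseudogene copy of the kallistatin gene, read -3.91 and -4.67 in KO ENU, against 2.12 and 2.10 in WT ENU, and -1.99 and -2.12 in KO vehicle, against 2.46 and 2.44 in WT vehicle. It fell by 5.45 ± 0.514 (limma adjusted p = 0.0114), and its other probe differed by -4.77 on vehicle and was not well above background in KO ENU. Serpina9, known as centerin from germinal centre B cells in humans, read -2.38 and -2.43 in KO ENU, against 1.02 and 0.98 in WT ENU, and -3.29 and -3.52 in KO vehicle, against -0.52 and -0.63 in WT vehicle. Serpina9 was 10.6-fold lower in KO after ENU and 7.11-fold lower on vehicle, and fell by 3.12 ± 0.232 (limma adjusted p = 0.00990). All KO arrays lay below all WT arrays for both genes. With normexp background correction their differences were -4.40 and -2.37, and both passed the test. The transporters of hormones in plasma did not pass it. Serpina6, corticosteroid-binding globulin, differed by 1.02 ± 0.266 (limma adjusted p = 0.0553) and was 2.66-fold higher in KO than in WT after ENU and 1.56-fold higher on vehicle; it passed with normexp (adjusted p = 0.0300), quantile (adjusted p = 0.0276) and averaged probes (adjusted p = 0.0498). Serpina7, thyroxine-binding globulin, is the clade A member on chromosome X, and its values are given with the ENU comparisons below. Serpina5, the protein C inhibitor, differed by 0.57 ± 0.180 (limma adjusted p = 0.0817) and Serpina11 by -0.71 ± 0.195 (limma adjusted p = 0.0622). Serpina10, which inhibits factor Xa with protein Z as cofactor, differed by 0.51 ± 0.203 (limma adjusted p = 0.129). No listed transcript of that probe was matched to a current gene, nor of the probes used for Serpina3g and Serpinb3c. The other Serpina10 probe, which lists a transcript of Serpina10, had the opposite sign, -0.24 after ENU and -0.16 on vehicle.

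The other 19 members of clade A lie together on chromosome 12, at chr12:101109198-101908089 (mm7, by the probes), a span of 798.9 kb. Members that fell were spread along it with others between them, except for the neighbours Serpina3k and Serpina3m: Serpina1b and Serpina1e have Serpina1d between them, and Serpina4-ps1, which had the largest difference of the family, adjoins Serpina5, which was 1.48-fold higher in KO than in WT after ENU and 1.49-fold higher on vehicle. The 12 clade B members on chromosome 13 (chr13:32208400-33341564) include 7 that were measured, of which 6 rose. Of the 12 on chromosome 1 (chr1:106781864-107508191), 2 were measured, and Serpinb8 rose.

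**Figure D2:**
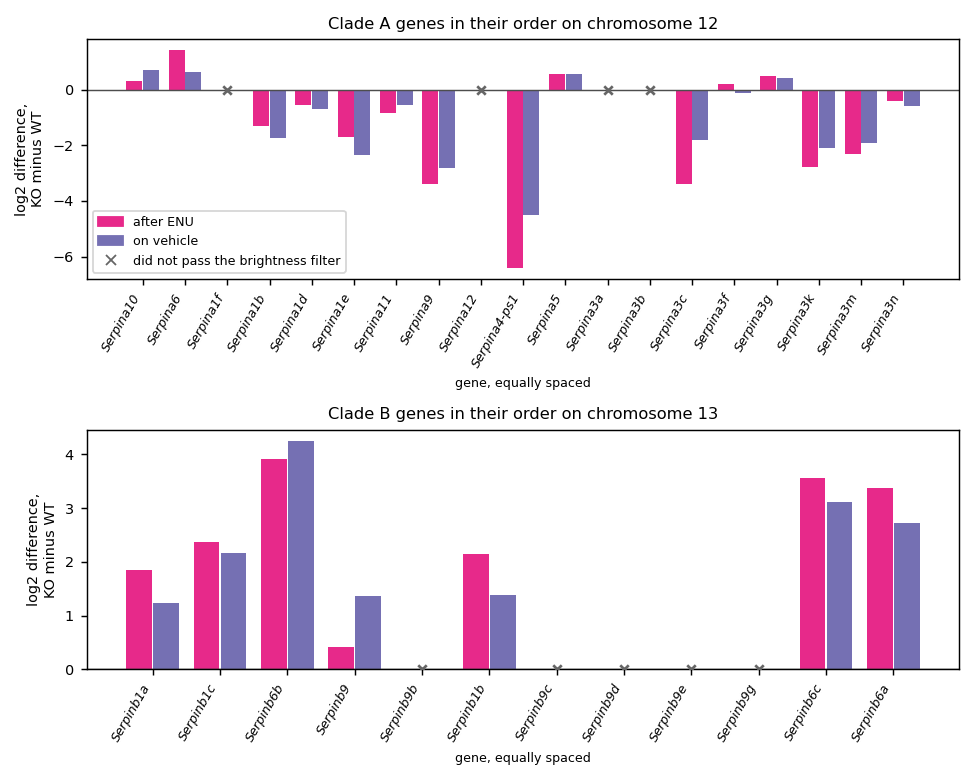
Log2 difference between KO and WT for clade A genes on chromosome 12 and clade B genes on chromosome 13, in chromosome order with equal spacing, after ENU (left bar) and on vehicle (right bar), 1 RNA sample a group. Crosses mark members that did not pass the brightness filter, and chromosome 12 shows decreases and increases, the highest being 1.41 for Serpina6 after ENU, while every bar on chromosome 13 points up.

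Hepatocyte markers were lower in KO liver together with clade A. Of 8 such genes, 5 fell and 0 rose, with a median difference of -0.99 after ENU and -1.07 on vehicle. Their summed level, in multiples of the 75th percentile of the array, was 1051 to 1076 in KO ENU, against 1730 to 1798 in WT ENU, and 1057 to 1118 in KO vehicle, against 2167 to 2172 in WT vehicle. All 8 were well above background in every group, including Asgr1, the asialoglycoprotein receptor, which fell by 1.77. In bulk liver, fewer cells of a type and less RNA per cell cannot be told apart, and the part of the hepatocyte markers' decrease in these results was not tested. Among 12 transcription factors known to act on liver genes, 0 rose and 2 fell, where 16.9% and 15.3% of all genes tested did. The 2 were Nr1h4, the bile acid receptor, which fell by 1.31, and Cebpa, which fell by 0.90. The list's median was -0.19 after ENU and -0.33 on vehicle.

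**Figure D3:**
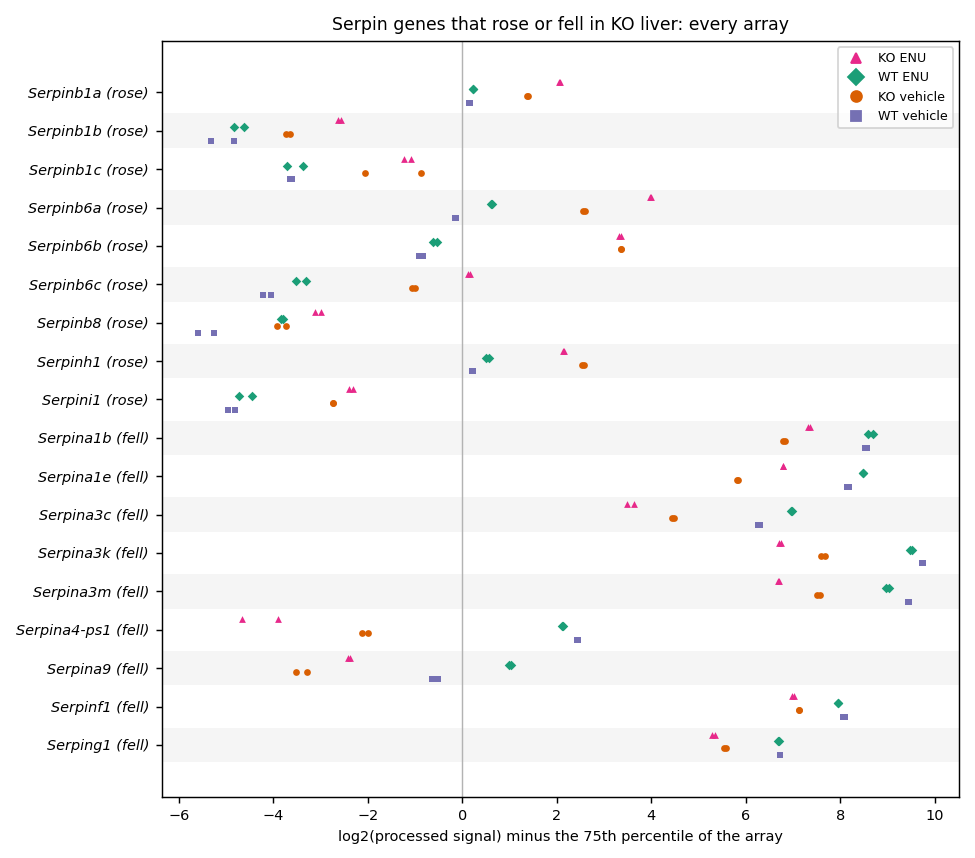
Level of 18 of the serpins that rose or fell in KO liver on each of the 8 arrays, as log2 processed signal minus the 75th percentile of the array, with colours and shapes for the 4 groups. The 4 KO arrays lie on one side of the 4 WT arrays in every row but that of Serpinb8, and the widest gap within a group is that of Serpinb1c in KO vehicle (-0.87 and -2.07).

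In clade B, the Serpinb6 genes differed most. Serpinb6a is the mouse counterpart of human proteinase inhibitor 6, an inhibitor of cathepsin G. Serpinb6a read 3.98 and 4.0 in KO ENU, against 0.60 and 0.63 in WT ENU, and 2.59 and 2.56 in KO vehicle, against -0.17 and -0.13 in WT vehicle. Serpinb6b read 3.36 and 3.32 in KO ENU, against -0.54 and -0.62 in WT ENU, and 3.36 and 3.35 in KO vehicle, against -0.93 and -0.84 in WT vehicle. Serpinb6c read 0.17 and 0.12 in KO ENU, against -3.52 and -3.31 in WT ENU, and -1.07 and -1.0 in KO vehicle, against -4.23 and -4.05 in WT vehicle. KO arrays were above WT arrays within each treatment for all 3, with no overlap. Serpinb6b rose by 4.08 ± 0.198 (limma adjusted p = 0.00959), by 15.1-fold after ENU and 18.9-fold on vehicle. Serpinb6c rose by 3.33 ± 0.214 (limma adjusted p = 0.00989), and with normexp its difference was 2.00 (adjusted p = 0.0140). Serpinb6a rose by 3.05 ± 0.243 (limma adjusted p = 0.0103), by 10.3-fold and 6.61-fold, while its other probe did not pass the filter.

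The Serpinb1 genes also rose. Serpinb1a, which inhibits neutrophil elastase, cathepsin G and proteinase 3, had the brightest probe of clade B in WT vehicle and read 2.07 and 2.06 in KO ENU, against 0.22 and 0.21 in WT ENU, and 1.40 and 1.37 in KO vehicle, against 0.17 and 0.15 in WT vehicle. It was 3.59-fold higher in KO than in WT after ENU and 2.34-fold higher on vehicle, and rose by 1.54 ± 0.239 (limma adjusted p = 0.0216). Serpinb1c read -1.10 and -1.24 in KO ENU, against -3.38 and -3.71 in WT ENU, and -0.87 and -2.07 in KO vehicle, against -3.62 and -3.64 in WT vehicle, and rose by 2.27 ± 0.188 (limma adjusted p = 0.0103). Serpinb1b, which was not well above background on any WT array, read -2.56 and -2.62 in KO ENU, against -4.63 and -4.83 in WT ENU, and -3.74 and -3.64 in KO vehicle, against -5.33 and -4.83 in WT vehicle. Serpinb1b was at least 4.14-fold higher in KO than in WT after ENU and at least 1.37-fold higher on vehicle. Its limma adjusted p of 0.0202 rests on WT readings at background, and the filter fixed its direction. Its call was lost with normexp (0.40, adjusted p = 0.202), and its other probe was not well above background on any array. With normexp Serpinb1c differed by 1.21 (adjusted p = 0.0135).

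Of the remaining clade B members, Serpinb8, an inhibitor of furin in humans, rose by 1.18 ± 0.278 (limma adjusted p = 0.0455). Serpinb8 read -3.0 and -3.11 in KO ENU, against -3.83 and -3.81 in WT ENU, and -3.73 and -3.93 in KO vehicle, against -5.60 and -5.26 in WT vehicle. The WT vehicle arrays were not well above background, which makes KO at least 1.25-fold higher on vehicle, and it was 1.70-fold higher after ENU. The call of Serpinb8 was lost with normexp (0.09, adjusted p = 0.625), quantile (0.0729), median scaling (0.0507), no filter (0.0537) and averaged probes (0.0997). It was also lost without 1 array of KO ENU (0.0520), WT ENU (0.0534) or WT vehicle (0.0547). Its KO vehicle arrays overlapped those of WT ENU. Its other probe differed by -0.04 after ENU and 0.20 on vehicle. Serpinb9, the granzyme B inhibitor of cytotoxic lymphocytes, differed by 0.88 ± 0.30 (limma adjusted p = 0.0936), and was 1.33-fold higher in KO than in WT after ENU and 2.56-fold higher on vehicle, where normexp gave 0.43. Serpinb3c, of the squamous cell carcinoma antigen group, differed by -0.14 ± 0.190 (limma adjusted p = 0.60).

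Neutrophil and bile duct markers, and most macrophage markers, moved in the same direction as clade B, while lymphocyte markers were mixed. Of 10 neutrophil and myeloid progenitor markers, 9 rose and 0 fell, with a median difference of 3.17 after ENU and 2.84 on vehicle. Their summed level was 50.6 to 51.2 in KO ENU, against 7.44 to 7.57 in WT ENU, and 36.1 to 36.6 in KO vehicle, against 4.87 to 4.89 in WT vehicle, and 2 of the 10 were not well above background in WT ENU (Elane and Camp) and 2 in WT vehicle (Elane and Ngp). Of 8 macrophage markers 5 rose, among them Lyz2, by 2.38, and their summed level was 244 to 246 in KO ENU, against 74.8 to 75.8 in WT ENU, and 138 to 139 in KO vehicle, against 49.6 to 50.2 in WT vehicle. The resident Kupffer cell markers Clec4f and Timd4 did not pass the test. All 6 cholangiocyte markers rose, Cldn7 by 5.46 and Spp1 by 3.27, with a summed level of 59.3 to 59.4 in KO ENU, against 7.76 to 7.89 in WT ENU, and 63.0 to 64.4 in KO vehicle, against 5.75 to 5.85 in WT vehicle. Of 6 measured T and NK cell markers 3 rose and 2 fell, and of 4 B cell markers 1 rose. The part of these cells in the clade B increases was not tested. Of 5 mast cell and basophil markers only Kit was measured, and it did not pass.

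Among the proteases that clade A and B members are known to trap, those stored in leukocyte granules were higher in KO where they passed the test. Of 7 measured granule proteases, 3 rose and 0 fell. Ctsg, cathepsin G, rose by 2.47. Elane, the neutrophil elastase, and the granzyme Gzmk were well above background in the KO groups only, so that the filter fixed their direction: after ENU Elane was at least 2.22-fold and Gzmk at least 1.95-fold higher in KO, and on vehicle Elane was at least 1.06-fold higher and Gzmk had no bound above 1. Elane and Ctsg are also neutrophil markers. The list's median was 1.29 after ENU and 0.67 on vehicle, and 3 of the 7 were not well above background in WT vehicle and 2 in WT ENU. Of 8 cysteine cathepsins, Ctsk rose by 2.42 and Ctss by 1.74, while Ctsf fell by 0.90; the median was 0.08 after ENU and 0.02 on vehicle.

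Clades C and D hold the heparin-dependent inhibitors of thrombin, and neither passed the test. Serpinc1, antithrombin, read 8.17 and 8.09 in KO ENU, against 8.73 and 8.74 in WT ENU, and 8.10 and 8.07 in KO vehicle, against 8.87 and 8.85 in WT vehicle. It was 1.52-fold lower in KO after ENU and 1.71-fold lower on vehicle, with no overlap of arrays, and differed by -0.69 ± 0.185 (limma adjusted p = 0.0591). Its other probe gave larger differences, -1.28 after ENU and -1.06 on vehicle. Serpind1, heparin cofactor II, read 6.91 and 6.93 in KO ENU, against 7.19 and 7.23 in WT ENU, and 6.06 and 6.18 in KO vehicle, against 6.65 and 6.62 in WT vehicle, and differed by -0.40 ± 0.189 (limma adjusted p = 0.171). Both directions reversed with quantile normalization, to 0.05 for Serpinc1 and 0.35 for Serpind1, and Serpinc1 passed the test as lower with normexp (adjusted p = 0.0288), median scaling (adjusted p = 0.0311) and averaged probes (adjusted p = 0.0286). Of the 19 coagulation and contact system genes, their targets and cofactors among them, 11 fell and 0 rose, with a median of -0.84 after ENU and -0.90 on vehicle. F2, the thrombin precursor, fell by 0.87, F9 by 1.55, F11 by 1.44, and Klkb1, plasma prekallikrein, by 1.52. Whether these calls hold with quantile normalization or other processing was not checked.

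Serpins that act on plasminogen activation and plasmin are found in clades E, F and I, and of those described here Serpini1 rose. Serpine2, protease nexin 1, read -1.70 and -1.66 in KO ENU, against -2.67 and -2.80 in WT ENU, and -2.23 and -2.28 in KO vehicle, against -1.46 and -1.38 in WT vehicle. Here KO was higher than WT after ENU, by 2.07-fold, and lower on vehicle, by 1.79-fold, and over both treatments it differed by 0.11 ± 0.510 (limma adjusted p = 0.881); the sign of that small difference turned under normexp (-0.09), quantile (-0.04) and median scaling (-0.09). Serpini1, neuroserpin, which inhibits tissue plasminogen activator in brain, read -2.39 and -2.32 in KO ENU, against -4.73 and -4.45 in WT ENU, and -2.74 and -2.73 in KO vehicle, against -4.96 and -4.81 in WT vehicle. It was 4.72-fold higher in KO than in WT after ENU and at least 2.66-fold higher on vehicle. No WT vehicle array and 1 of the 2 WT ENU arrays was well above background, so the fit, in which it rose (limma adjusted p = 0.0103), rests on readings near background, and with normexp the difference was 0.66 (adjusted p = 0.0371). Serpinf2, alpha-2 antiplasmin, differed by -0.10 ± 0.205 (limma adjusted p = 0.719), and by 0.70 with quantile normalization.

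Both plasminogen activators were among the genes that rose, but for Plau, with WT readings below background, the filter fixed the direction. Of 10 genes of plasminogen activation and its partners, 4 rose and 3 fell. Plat, tissue plasminogen activator, rose by 3.26, the urokinase receptor Plaur by 3.34, and Thbd, thrombomodulin, by 1.39. Plau, urokinase, is counted among the 4 and was well above background in the KO groups only. It was at least 2.84-fold higher in KO after ENU and had no bound above 1 on vehicle. Plg, the plasminogen made by hepatocytes, fell by 0.80, the protease Hpn by 0.80 and the plasma protein Hrg by 1.29. The list's median was -0.32 after ENU and -0.39 on vehicle. The platelet markers gave 1 that rose, Pf4 by 1.42, and 1 that fell of 5, and endothelial markers 0 and 1 of 6; their part was not tested.

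Serping1, the C1 inhibitor that stops C1r, C1s and plasma kallikrein, fell. It read 5.35 and 5.30 in KO ENU, against 6.69 and 6.70 in WT ENU, and 5.58 and 5.54 in KO vehicle, against 6.73 and 6.72 in WT vehicle, with every KO array below every WT array. It was 2.59-fold lower in KO after ENU and 2.25-fold lower on vehicle, and fell by 1.27 ± 0.188 (limma adjusted p = 0.0200), though not with quantile normalization (-0.55, adjusted p = 0.100). Its target proteases fell as well: C1ra by 0.85, C1s1 by 1.16 and C1s2 by 1.47. In the list of complement and lectin pathway proteases, 5 of 10 measured genes fell and 0 rose, with Masp2, the lectin pathway protease, among them. Masp2 fell by 1.84, and Cfd, which is better known from adipose tissue, passed the test with no KO array well above background, being at least 4.77-fold lower in KO after ENU and at least 68.7-fold lower on vehicle. The filter thus fixed the direction of Cfd. The list's median was -0.96 after ENU and -0.85 on vehicle.

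Serpinf1 and Serpinh1, which inhibit no protease, went opposite ways. Serpinf1, pigment epithelium-derived factor, a secreted inhibitor of blood vessel growth, read 7.02 and 6.97 in KO ENU, against 7.96 and 7.95 in WT ENU, and 7.13 and 7.13 in KO vehicle, against 8.07 and 8.09 in WT vehicle. It was 1.94-fold lower in KO after ENU and 1.93-fold lower on vehicle, and fell by 0.95 ± 0.180 (limma adjusted p = 0.0302). Its other probe differed by -0.93 after ENU and -1.27 on vehicle. Under quantile normalization the Serpinf1 difference was -0.08 (adjusted p = 0.752). Serpinh1, the collagen chaperone of the endoplasmic reticulum, read 2.12 and 2.14 in KO ENU, against 0.55 and 0.51 in WT ENU, and 2.58 and 2.52 in KO vehicle, against 0.23 and 0.21 in WT vehicle. It was 3.04-fold higher in KO than in WT after ENU and 5.04-fold higher on vehicle, and rose by 1.97 ± 0.258 (limma adjusted p = 0.0169). Of 14 collagen genes, whose chains it helps to fold, 11 rose and 1, Col5a3, fell, with a median of 1.49 after ENU and 2.21 on vehicle. Col1a1 rose by 3.39, Col3a1 by 2.78 and Col6a3 by 3.10. Of the 8 stellate cell and fibroblast markers 3 rose, of which Col1a1 and Col3a1 are collagens of the same list and the other, Pdgfrb, rose by 1.75. Their summed level was 156 to 157 in KO ENU, against 81.0 to 82.0 in WT ENU, and 146 to 151 in KO vehicle, against 74.3 to 75.3 in WT vehicle, and their part in the Serpinh1 increase was not tested. Of 4 mesothelial markers 1, Wt1, rose. Wt1 was well above background in the KO groups only, so that the filter fixed its direction. It was at least 1.75-fold higher in KO after ENU and had no bound above 1 on vehicle.

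Protease inhibitors of other families divided too. Of 23 measured, 6 rose and 6 fell, with a median of 0.02 after ENU and -0.12 on vehicle. The general trap A2m passed the test and was at least 10.6-fold higher in KO after ENU and at least 4.20-fold on vehicle, as no WT array was well above background. The filter thus fixed its direction. The epithelial inhibitors Spint1 and Slpi rose by 4.76 and 4.06, Timp1 and Timp2, which restrain matrix metalloproteinases, by 1.5 and 1.59, and Wfdc2 by 1.34. The plasma inhibitors Mug1, Mug2 and Pzp, relatives of A2m, fell by 1.96, 2.03 and 0.96, as did Itih1 by 1.20, Fetub by 1.27 and Tfpi2 by 1.60.

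**Figure D4:**
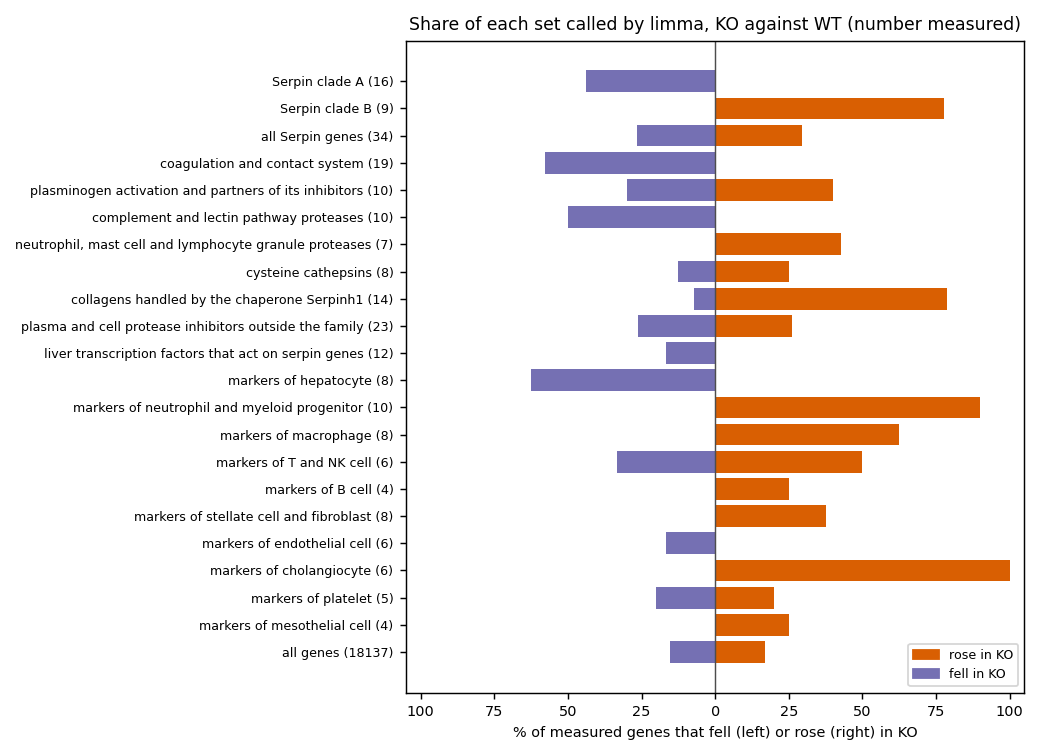
Share of the measured genes of each set that fell (left) or rose (right) in KO liver by limma over the 4 RNA samples, with the number measured in parentheses and all genes at the bottom. Clade A shares its side with the coagulation, complement and hepatocyte sets, and clade B with the neutrophil, macrophage and cholangiocyte sets; of all genes 16.9% rose and 15.3% fell.

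No serpin rose or fell with ENU over both genotypes. With limma 0 of 18137 genes passed the adjusted threshold, while 4008 (22.1%) had an unadjusted p under 0.05, 10 of the 34 serpins among them. Treating the 8 arrays as separate samples would call 19 serpins higher and 10 lower, judged against the noise between arrays alone. The single comparisons below have no test and are open to the slide, which cannot be told apart from ENU. In KO, 4 serpins were higher by 2-fold or more and 2 lower, where 4.32% and 5.47% of all genes were. In WT, 4 were higher and 3 lower, where 7.13% and 5.57% of all genes were. In both genotypes 0 were higher and 1 was lower (1.79% and 1.85% of all genes), each gene being read by its brightest probe. The median ENU difference of the serpins was 0.23 in KO and 0.22 in WT, against -0.06 and -0.05 over all genes.

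By the brightest probe of each gene, Serpina5 was the serpin past 2-fold in the same direction in both genotypes. It read -3.21 and -3.37 in KO ENU, against -3.98 and -3.73 in WT ENU, and -1.66 and -1.67 in KO vehicle, against -2.16 and -2.33 in WT vehicle. The ENU samples were 3.09-fold lower in KO and 3.06-fold lower in WT, and its other probe was not well above background on any array. With normexp the differences were -1.10 in KO and -0.94 in WT. Serpina9 came near: ENU against vehicle was 1.0 in KO and 1.58 in WT, on levels given above. Serpina3f was 2.27-fold higher with ENU in KO, where normexp gave 0.85, and 1.86-fold higher in WT. Its other probe, well above background on all 8 arrays, differed by 1.43 in KO and 1.29 in WT, past 2-fold in both.

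By the brightest probe, other serpins had a measured difference past 2-fold in 1 genotype. Serpina7 read -2.87 and -2.82 in KO ENU, against -0.21 and -0.22 in WT ENU, and -2.94 and -2.78 in KO vehicle, against -2.83 and -2.69 in WT vehicle; it was chosen for this pattern after its values were seen. The WT ENU arrays stood apart from the other 6. With ENU, Serpina7 differed by 0.01 in KO and was 5.84-fold higher in WT, so that KO was 6.20-fold lower than WT after ENU and the KO difference on vehicle was -0.10. With normexp its difference in WT was 1.77. Serpinb6a and Serpinb6c were 2.66-fold and 2.27-fold higher with ENU in KO, and 1.70-fold and 1.66-fold higher in WT. Serpinb1b was 2.14-fold higher with ENU in KO, and with normexp the difference of 0.44 was under 2-fold. Serpinb9 was 1.47-fold higher with ENU in KO, against 2.84-fold in WT. Its other probe, well above background on 6 arrays, differed by 1.51 in KO and 2.94 in WT, past 2-fold in both. Serpinb8 was 1.71-fold higher with ENU in KO, against at least 1.26-fold in WT, where its measured difference was 1.61. Its other probe had the opposite sign, -0.31 in KO and -0.07 in WT. With normexp the WT differences of the brightest probes of Serpinb9 and Serpinb8 were 0.61 and 0.12.

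Lower readings with ENU were found for Serpina4-ps1 in KO, by 4.71-fold, against 1.26-fold in WT, and the KO difference was -1.22 with normexp. Serpine2 was 1.49-fold higher with ENU in KO and 2.49-fold lower in WT, where normexp gave -0.85. Serpina3c went the other way, 1.85-fold lower with ENU in KO and 1.62-fold higher in WT. Whether the ENU responses of the genotypes differ was not tested for any serpin, since each group is 1 RNA sample. The other members described lay between -0.90 and 0.96 in both genotypes.

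**Figure D5:**
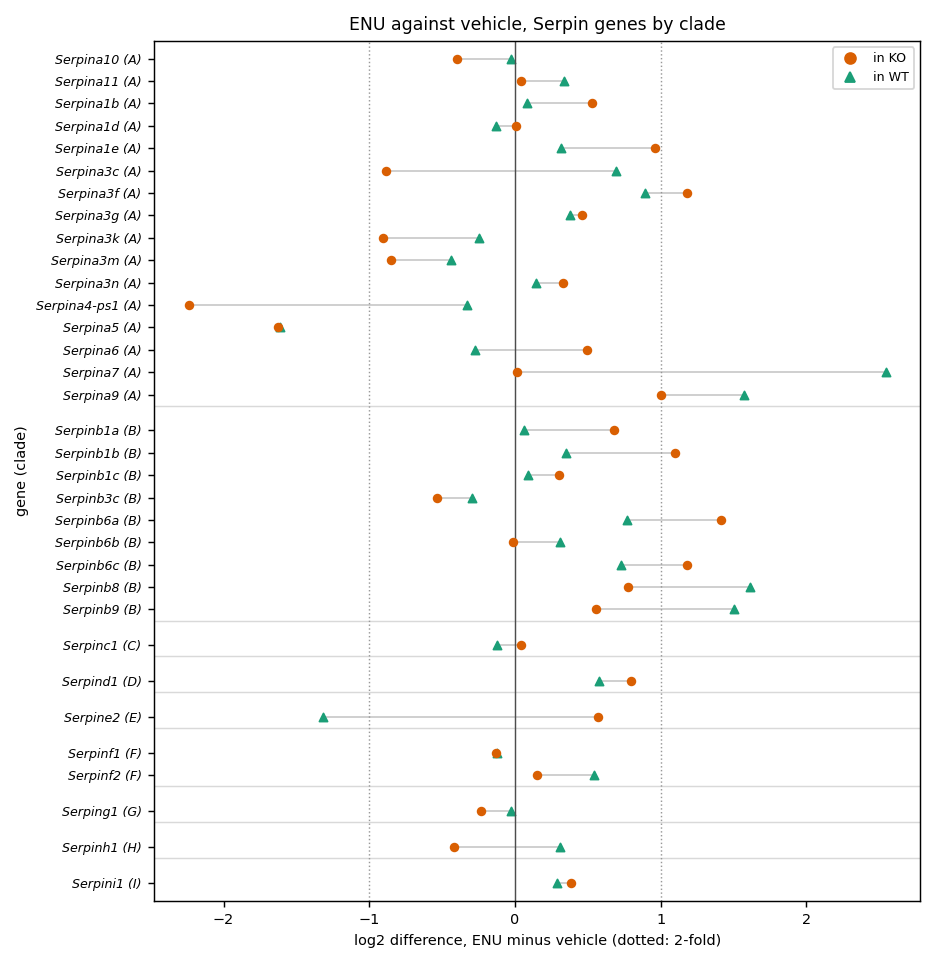
Log2 difference between ENU and vehicle for 33 of the measured serpins, by clade, in KO (circles) and WT (triangles), 1 RNA sample a group, with dotted lines at 2-fold. Serpina7 stands out in WT at 2.54, Serpina4-ps1 in KO at -2.24, and Serpina5 lies at -1.63 and -1.61.

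Members that did not pass the filter add a few single readings. Serpini2, the pancreatic serpin, read -1.13 on 1 WT ENU array and Serpinb3d -1.70 on the other, each without its partner array being well above background. Serpinb7, megsin in humans, read -3.49 on 1 KO ENU array. None of these is a level of its group.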

How the data were processed

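Members, gene lists and markers were chosen with earlier results of these data known. The authors scanned 1-colour Agilent arrays and extracted spot intensity with Feature Extraction, version 10.7.1.1 per the file headers and 10.5.1 per the submitters' processing notes. The deposited processed signal is background-corrected intensity, per the file headers. Probe coordinates are mm7, per the file headers. From these, log2 processed signal minus the 75th percentile of the array was computed, without control and outlier spots. Spots of a probe were averaged, and the brightest probe that passed the filter stood for a gene. Of 41174 probes, 22951 were named by accession, 6659 by symbol and 3109 by synonym in a RefSeq table (GRCm38.p6). Between 54.7% and 69.3% of spots were well above background, none was saturated, and the number of arrays limits the precision.

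The 2 arrays of a group differed by a median of 0.662 to 0.854 standard errors over probes with at least 5 spots, where spot noise gives 0.706, and arrays of different groups by 10.9 to 26.8. They were averaged. The array letters do not pair samples (correlations of -0.02 to 0.11 between groups). Limma 3.58.1 in R 4.3.3 fitted genotype and treatment to the 4 RNA samples with Benjamini-Hochberg adjustment, and was tested on simulated data. In a group too dim for every probe of a gene, the fold is a bound from the lowest signal well above background, or the probe's own if higher. Named genes were the measured members, with every array shown for those called by limma, past 2-fold in both comparisons of a kind, or brightest of their clade in WT vehicle, and list genes that passed limma. The values of 1 member are not reported here, though counts over the family include it. Alternatives were normexp (offset 50) on the deposited mean and background intensity, quantile or median scaling, no filter, all probes averaged, each array left out, and the 8 arrays as separate samples. They were looked at for the serpins and for all genes together. The calls of single list and marker genes, and the counts of their lists, were not checked under them.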

Additional observations from a re-analysis of the deposited data

Results flagged for a closer look

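Serpina3c and Serpine2 moved in opposite directions, by at least 1.5-fold each way and on both arrays, under the same contrast. With ENU, Serpina3c differed by -0.89 in KO and 0.69 in WT. Between KO and WT, Serpine2 differed by 1.05 after ENU and -0.84 on vehicle. Each value is a log2 difference of 1 RNA sample against 1, and the difference between the differences was not tested.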

How the results depend on the processing

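Of 52 single differences past 2-fold, 0 changed sign under any alternative run. Over both treatments, the KO difference reversed for 5 serpins, none of which had passed the test: Serpina3f (-0.041 with normexp, -0.082 with quantile, -0.15 with median scaling), Serpine2 (-0.094, -0.040 and -0.087) and, with quantile, Serpinc1 (0.052), Serpind1 (0.35) and Serpinf2 (0.70). Quantile left 5 serpins that fell in place of 9, and gave median serpin differences of 0.33 after ENU and 0.10 on vehicle. Median scaling gave 4790 genes that fell, against 2767 that rose (main 2781 and 3066), 13 serpins that fell and 9 that rose, and medians of -0.21 and -0.27. Normexp gave 4105 genes that fell and 2385 that rose, 12 and 9 among serpins, 3 genes that fell with ENU, and a median ENU difference in WT of 0.023. Quantile gave 1949 that fell and 2894 that rose. Without the filter the medians were -0.54 after ENU and -0.54 on vehicle for KO, and -0.036 in KO and 0.016 in WT for ENU.

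With the 8 arrays as separate samples 6640 genes rose and 8784 fell in KO (16 and 16 serpins), and 6004 and 7434 with ENU (19 and 10 serpins). With the array letter as replicate block these were 6610 and 8707 (15 and 16), and 5912 and 7296 (19 and 10). The letters share only a name, and the block moved these counts by under 1.5 times. Leaving out each array gave 9 to 10 serpins that rose, 9 that fell, and median ENU differences of 0.12 to 0.25 in KO and 0.12 to 0.23 in WT. In the fits to 4 RNA samples, beside the losses and gains given in the text, Serpina1d and Serpina11 passed as lower with normexp and median scaling, and Serpina3n with median scaling. Signal over background limits Serpinb1b, Serpinb8 and Serpini1, whose WT readings include bounds.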
